A study of Mus musculus with 2 samples.

Results

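The genes of the LIF, JAK and STAT3 pathway were followed in EpiSC derived from mouse ES cells along a direct route and along a route through aggregates. They were Lifr, Il6st, Osmr, Jak1, Jak2, Stat3, Socs3, Pim1, Pim3 and Bcl3. Members were found by an exact match of the gene name on probes that are not controls, which gave 13 probes for 10 of the 34650 gene names on the array. All 13 probes matched a RefSeq transcript of the same symbol, and all are shown.

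Both groups started from E14Tg2A, a mouse ES cell line of strain 129/Ola, grown with 1000 U/mL LIF and 10% serum. EpiSC (epiblast stem cells, the primed pluripotent state) were made by exposing ES cells directly to FGF2 at 12 ng/mL and Activin A at 20 ng/mL in a chemically defined minimal medium. ELA-EpiSC received the same factors after the ES cells had formed Epiblast-Like Aggregates (ELA), floating clusters that arise once serum and LIF are withdrawn. The labels list no LIF in the medium with FGF2 and Activin A, which both groups share. RNA of each group was pooled from 3 experiments and hybridized to 1 array, so differences between cultures were averaged within each pool and no difference has a replicate check. The labels disagree in 1 field: the sample source is given as an Argonaute immunoprecipitate for EpiSC, and as undifferentiated cells for both groups. Titles and descriptions name EpiSC and ELA-EpiSC, and the titles were followed.

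LIF is a cytokine of the interleukin-6 family. It binds the receptor LIFR, which pairs with gp130, the shared signalling chain encoded by Il6st, and the JAK kinases attached to the receptors then phosphorylate STAT3. In mouse ES cells grown in serum, STAT3 activated in this way sustains self-renewal, whereas EpiSC are maintained by FGF2 and Activin A and do not need LIF. Active STAT3 induces SOCS3, which shuts the receptor off again, and genes such as Pim1, Pim3 and Bcl3.

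Sequences are shown for the probes on which the sizes of difference turn. These are the 3 probes of Lifr and the 2 of Stat3, which gave unequal differences within their gene, and the probes of Pim1 and Bcl3, which gave the 2 largest differences among the 10 genes. The first 30 bases of each 60-base probe follow, 5′ to 3′, and no base is marked.
Lifr, brightest probe: catagatgatgtaaatagcctaagacactg
Lifr, second probe: taaaaacttggaaatgtatccaggcctaac
Lifr, remaining probe: agaacaaaccaaatgactaaccaggtcacc
Stat3, brightest probe: cactctgtgagctgataccccaggctggga
Stat3, second probe: tttaacattctgggcacgaacacaaaagtg
Pim1: ccttgggatcctgctctatgacatggtctg
Bcl3: ggagggcattgatcacagtgtaaattatta

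One further sequence bears on the targets. STAT proteins bind DNA at sites of the form TTCNNNGAA, which reads the same on both strands, so that a match on one strand is a match on the other. This motif was searched in the 250 bases before the gene start of every RefSeq promoter of assembly GRCm38.p6, and 7.02% of 32851 promoters held it. All 10 genes matched, with 12 promoters, and the motif was present in 1 of them, that of Socs3. It began 154 bases before the gene start. The 250 bases before the start of Socs3, at chr11:117969367-117969616 on the minus strand, are shown with the match in capitals.
Socs3 promoter: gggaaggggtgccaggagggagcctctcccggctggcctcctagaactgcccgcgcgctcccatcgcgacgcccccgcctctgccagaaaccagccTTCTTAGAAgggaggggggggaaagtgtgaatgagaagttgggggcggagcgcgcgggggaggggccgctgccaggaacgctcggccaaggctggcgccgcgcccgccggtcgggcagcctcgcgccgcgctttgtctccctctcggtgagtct
The match is a description of these letters, and binding was not measured here.

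Each array held 62976 spots, and 65.8% of the probes on the EpiSC array and 65.0% of those on the ELA-EpiSC array were well above background. The 0 saturated spots on either array left no value bounded from above. Levels are given as log2 of background-corrected, quantile-normalized spot intensity, and differences as log2 ELA-EpiSC minus EpiSC, so that 1 is a fold of 2. The only error that could be measured was the spread of replicate spots, so that variation from labelling and from culture is not included. Over 312 probes printed 10 times and well above background on both arrays, the root mean square SD of a spot-by-spot difference was 0.10. The spike-in probes gave a mean difference of -0.54, and setting them equal would add 0.54 to every difference given here. Levels of different probes depend on the probe and were not compared. With 1 array per group, the number of arrays limits the precision of the comparison.

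Higher levels in ELA-EpiSC prevailed among the 10 genes. Of the 10 genes, 9 had a mean level of at least 7.5, the minimum below which genes were not counted, and Osmr fell under it. Of these 9, 5 were higher in ELA-EpiSC by at least 1, namely Il6st, Jak2, Pim1, Pim3 and Bcl3, beside 4.54% of all 16649 genes above the minimum. None was higher in EpiSC by at least 1 (0 of 9), beside 4.46% of all genes. All 9 differences lay above 0, beside 50.2% of all genes. The median difference of the 9 genes was 1.18, and that of all genes was 0.0014. With the spike-in probes set equal, Lifr at 1.19, Stat3 at 1.05 and Socs3 at 1.52 passed 1 as well, which left Jak1 alone below it among the 9, beside 14.8% of all genes past 1 in that direction. The genes were chosen with earlier results of these data known, so that these counts describe them and test nothing. In bulk RNA, fewer cells of a type and less RNA per cell cannot be told apart.

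**Figure D1:**
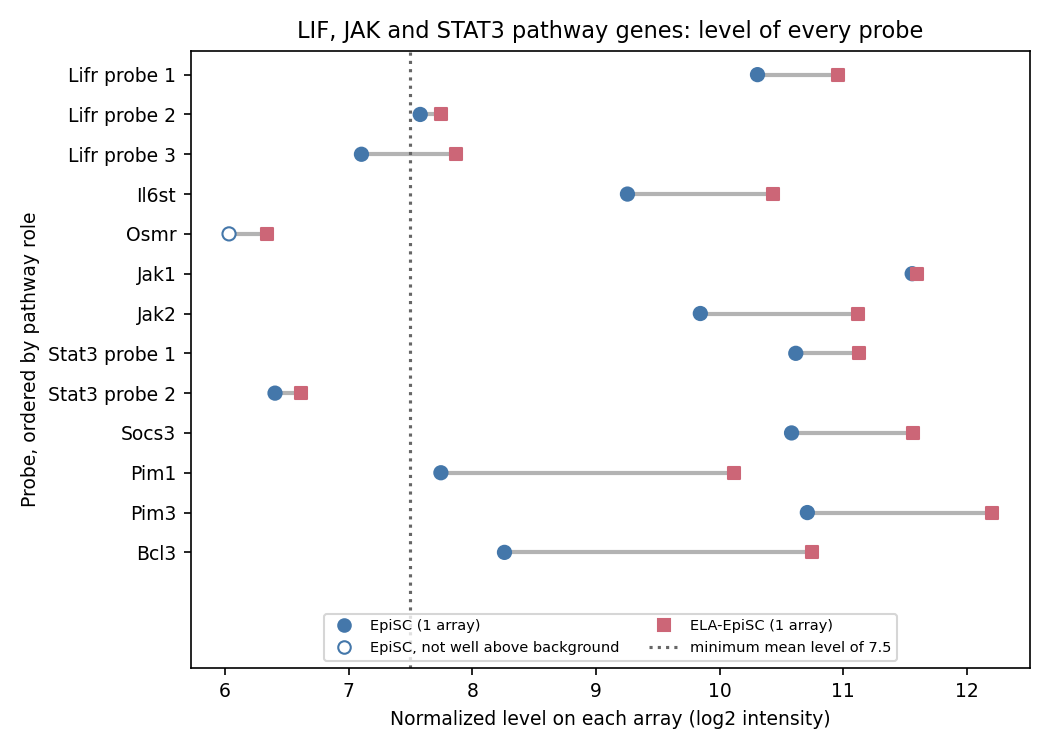
Normalized level (log2 intensity, horizontal axis) of each of the 13 probes on the EpiSC array (circles) and the ELA-EpiSC array (squares), 1 array per group, with genes ordered from receptors to targets and the probes of a gene by brightness. The square lies to the right of the circle for all 13 probes, the symbols of Jak1 nearly coincide, and the open circle marks Osmr, which was not well above background in EpiSC.

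Receptors. Il6st, the gp130 chain through which the whole cytokine family signals, measured 9.26 in EpiSC and 10.44 in ELA-EpiSC. The difference was 1.18, a fold of 2.27, and 3.36% of all genes were higher in ELA-EpiSC by at least as much. Its probe lies at chr13:113296586-113296645 on the plus strand (mm9, the assembly of all probe positions given here). Whether a probe lies in a coding exon or a UTR was not analysed here.

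Lifr, the chain that binds LIF itself, differed less. Its brightest probe, at chr15:7147319-7147378, measured 10.31 in EpiSC and 10.96 in ELA-EpiSC, higher by 0.65 or a fold of 1.57. The remaining probe, lowest of the 3 in mean level, lies at chr15:7141150-7141209 and is assigned to the same RefSeq transcript. It measured 7.10 in EpiSC and 7.87 in ELA-EpiSC, higher by 0.77. The second, at chr15:7135072-7135131, is assigned to another transcript of the gene and measured 7.58 and 7.75, higher by 0.17. All 3 Lifr probes were thus higher in ELA-EpiSC, by 0.17 to 0.77, and none reached 1 on this scale.

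Osmr, the chain that pairs with gp130 to bind oncostatin M, was close to background. The level of its probe, at chr15:6763686-6763745, was 6.34 in ELA-EpiSC, and in EpiSC, where it was not well above background, it measured 6.03. The difference was 0.31, a fold of 1.24 over an EpiSC reading that was not well above background, so its size is uncertain. Scaling to the 75th percentile after background correction turned this difference to -0.02. Other settings raised it, to 0.88 with the authors' own log2 values and 1.02 with an offset of 0 in the background correction. The scanner's processed signal gave 1.55. Before normalization the ratio of the spots above local background was 3.39, from 7.23 units in EpiSC and 24.52 in ELA-EpiSC.

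Kinases. Jak1 and Jak2, which both encode kinases that serve gp130, behaved unequally. Jak2 measured 9.84 in EpiSC and 11.12 in ELA-EpiSC, higher by 1.28 or a fold of 2.42 (probe at chr19:29387487-29387546), and 2.92% of all genes were higher by at least as much. Jak1 measured 11.56 in EpiSC and 11.60 in ELA-EpiSC (probe at chr4:100825094-100825153). Its difference of 0.04 was smaller than the spot SD of 0.10, and 46.1% of all genes were higher in ELA-EpiSC by at least as much. The brightness of the Jak1 spot above local background, before any normalization, was 2666 intensity units in EpiSC and 3386 in ELA-EpiSC, a ratio of 1.27, whereas that of Jak2 was 772.49 and 2401, a ratio of 3.11. Both readings therefore left Jak1 with the smallest difference among the 10 genes, and the processing settings moved its difference between 0.04 and 0.58, the upper end with the spike-in probes set equal.

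Stat3, the transcription factor of the pathway, was printed 10 times on each array and so was the member with a direct measure of spot error. Its spots at chr11:100749598-100749657 ranged from 10.40 to 10.83 in EpiSC and from 10.95 to 11.37 in ELA-EpiSC, and the ranges did not overlap. The mean was 10.62 ± 0.13 (SD, n = 10 spots of 1 array) in EpiSC and 11.13 ± 0.15 in ELA-EpiSC. Taken spot by spot, the difference was 0.51 ± 0.08 (SD over 10 spot pairs), from 0.34 to 0.59, and was above 0 in 10 of 10 pairs. This is a fold of 1.42, and 13.2% of all genes were higher in ELA-EpiSC by at least as much, so the difference was well resolved from spot noise and modest in size. These spots hold the same 2 RNA pools and are not replicates of the cultures. A second, dim Stat3 probe assigned to another transcript, at chr11:100759946-100760005, measured 6.40 in EpiSC and 6.61 in ELA-EpiSC, higher by 0.21.

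**Figure D2:**
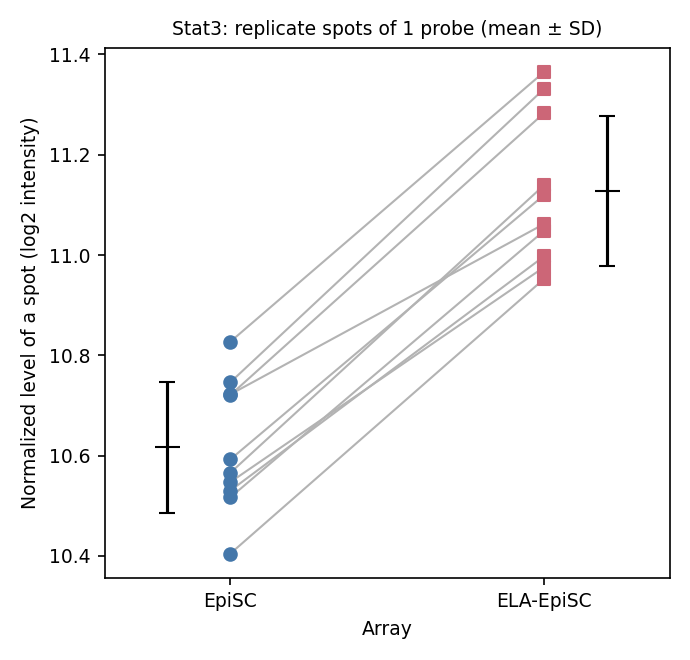
Normalized level (log2 intensity, vertical axis) of the 10 replicate spots of the brightest Stat3 probe on each array, with lines joining the spots at the same position and bars giving the mean ± SD over the spots of an array. Every line rises, by 0.34 to 0.59, and the highest EpiSC spot (10.83) lies below the lowest ELA-EpiSC spot (10.95).

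Targets and feedback. Bcl3, an atypical IkB protein that acts as a nuclear cofactor of NF-kB, had the largest difference among the 10 genes, ahead of Pim1 by little more than the spot SD. It measured 8.26 in EpiSC and 10.75 in ELA-EpiSC, higher by 2.49 or a fold of 5.61, and 0.408% of all genes were higher in ELA-EpiSC by at least as much. Before normalization its spot, at chr7:20393826-20393885, measured 224 units above background in EpiSC and 1853 in ELA-EpiSC, a ratio of 8.27.

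Pim1, a serine/threonine kinase that promotes survival and cycling, came second. It measured 7.75 in EpiSC and 10.12 in ELA-EpiSC, higher by 2.37 or a fold of 5.17 (probe at chr17:29630740-29630799). Its spot measured 142 units above background in EpiSC and 1177 in ELA-EpiSC, a ratio of 8.28. Both Bcl3 and Pim1 were dim in EpiSC, and the offset added in the background correction compresses the differences of dim probes. With an offset of 0 the difference was 2.70 for Bcl3 and 2.69 for Pim1. The order of the pair turned with the scanner's processed signal, which gave 2.72 for Bcl3 and 2.74 for Pim1.

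Pim3, a kinase of the same family, measured 10.71 in EpiSC and 12.20 in ELA-EpiSC, higher by 1.49 or a fold of 2.81 (probe at chr15:88695626-88695685). The remaining Pim kinase, Pim2, belonged to the list of other targets described further on and went the other way, from 12.29 in EpiSC to 11.82 in ELA-EpiSC. Its difference of -0.48 did not reach the threshold, and it turned to 0.06 with the spike-in probes set equal. Pim2 was singled out after its value had been seen.

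Socs3, the feedback inhibitor that binds gp130 and the JAK kinases, lay at the edge of the threshold. It measured 10.58 in EpiSC and 11.56 in ELA-EpiSC, higher by 0.98 or a fold of 1.97 (probe at chr11:117827480-117827539, minus strand), and 4.78% of all genes were higher in ELA-EpiSC by at least as much. Under 14 other processing settings the difference lay between 0.94 and 1.52 and passed 1 in 5 of them. Its promoter, shown earlier, was the one with the STAT motif. The 5 genes past the threshold had no match in the 250 bases searched, which says only that these letters are not in that window.

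**Figure D3:**
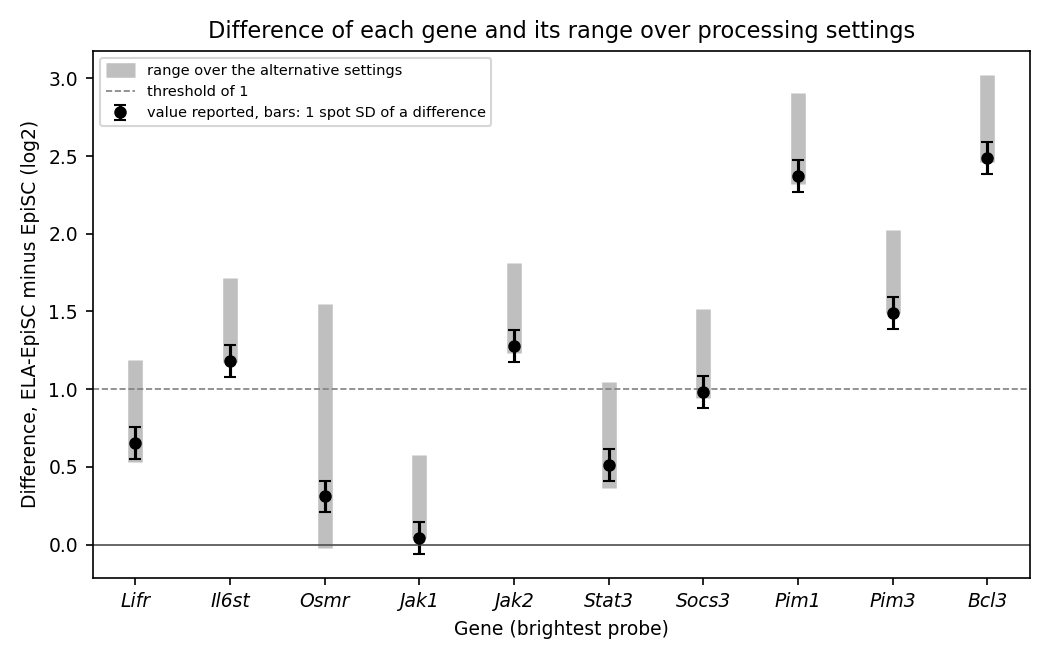
Difference ELA-EpiSC minus EpiSC (log2, vertical axis) of each gene on its brightest probe (points, bars of 1 root mean square spot SD of 0.10), with the range over the alternative processing settings in grey. Il6st, Jak2, Pim1, Pim3 and Bcl3 stay above 1 over their whole range, Socs3 straddles 1, and the range of Osmr runs from -0.02 to 1.55.

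The genes fell into a graded order by size of difference. Bcl3 and Pim1 differed by 2.49 and 2.37, 1.15 spot SDs apart. Pim3 followed at 1.49, then Jak2 at 1.28, Il6st at 1.18 and Socs3 at 0.98, with steps of 0.92 to 2.11 spot SDs between these neighbours. The spot SD is that of 1 difference, whereas a gap between 2 genes carries the error of both, so these multiples overstate how well neighbours are separated. Lifr at 0.65 and Stat3 at 0.51 formed the next step, and Jak1 at 0.04 the last. No spread between cultures is known, so the order holds for these 2 pools.

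**Figure D4:**
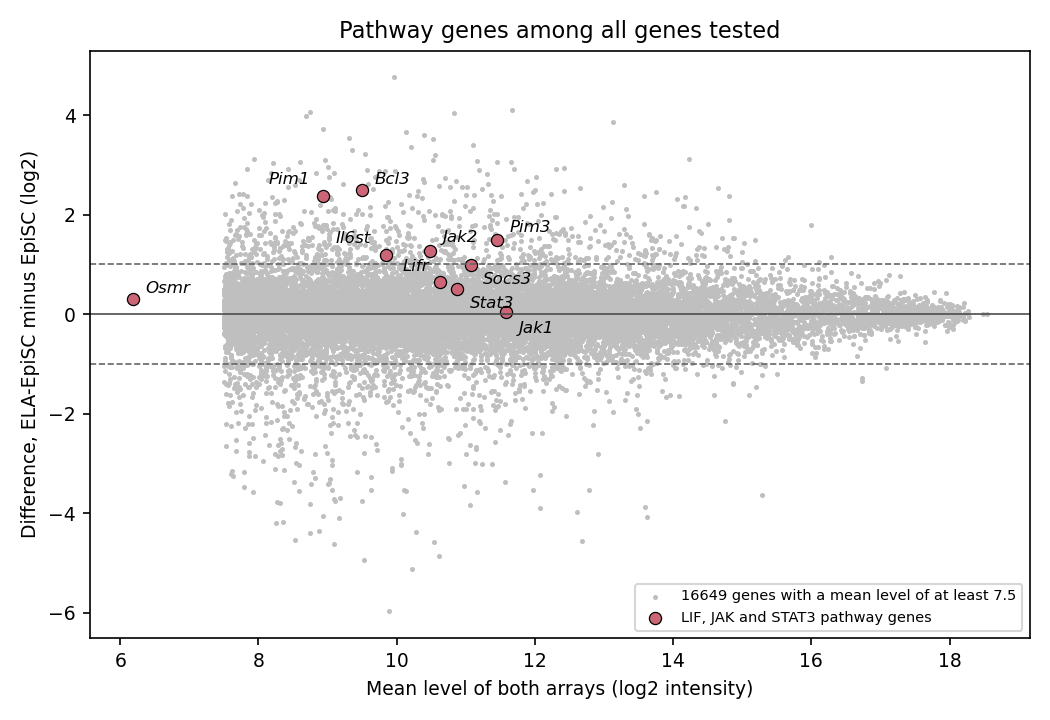
Difference ELA-EpiSC minus EpiSC (log2, vertical axis) against the mean level of both arrays (log2 intensity, horizontal axis) for the 16649 genes above the minimum level (grey) and the 10 pathway genes (red), with dashed lines at a difference of 1 in either direction. Pim1 and Bcl3 lie near the upper edge of the cloud at a low mean level, Jak1 lies on the line at 0, and Osmr lies below the minimum level.

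The rest of the pathway was read from 6 lists, which were likewise drawn up with earlier results known. Ligands were mostly level or dim. Lif itself measured 6.78 in EpiSC and 7.17 in ELA-EpiSC, under the minimum level on both arrays. Il11, a cytokine that also signals through gp130, was the exception, at 8.04 in EpiSC and at 10.13 in ELA-EpiSC, higher by 2.09. It was the 1 ligand of 4 above the minimum level that reached 1, beside 4.54% of all genes higher in ELA-EpiSC by at least 1. Cntf differed by 0.23, Ctf1 by -0.27 and Il27 by -0.04. Osm, Ctf2 and Clcf1 lay under the minimum level with differences of 0.05, -0.07 and -0.27, and on neither array was Il6 well above background. The signs of Ctf1, Ctf2, Clcf1, Il27 and Osm turned under at least 1 of the scalings.

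Among the other cytokine receptors, 4 of the 14 counted were higher in ELA-EpiSC by at least 1 and 0 in EpiSC, beside 4.54% and 4.46% of all genes, with a median of 0.26 that turned to -0.043 with the scanner's processed signal scaled to its 75th percentile. Ghr, the growth hormone receptor, which signals through JAK2, measured 9.62 in EpiSC and 12.70 in ELA-EpiSC, higher by 3.08, and its other probe gave 2.36. Il6ra, the subunit that binds interleukin-6 and passes it to gp130, measured 7.52 in EpiSC and 10.48 in ELA-EpiSC, higher by 2.96. Cntfr, the subunit for ciliary neurotrophic factor, was higher by 1.43 on the brightest of its probes and by 1.73 on the other. Epor, the erythropoietin receptor, differed by 1.07. All 4 kept a difference above 1 under the 14 other settings.

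The other kinases and transcription factors of the family stayed under the threshold. Of 8 other JAKs and STATs, counted with the STAT partner Irf9, 0 reached 1 in either direction, and the median was 0.06. A count of 0 in 8 is near the 4.54% and 4.46% of all genes, so it does not set this list apart. Towards ELA-EpiSC the count was 1 with an offset of 0, beside 5.0% of all genes. It was 2 with the spike-in probes set equal, beside 14.8%. Jak3 had the largest difference, 0.82, on its brighter probe, with 0.43 on the other, followed by Stat6 at 0.54, with 0.32 on its other probe, and Stat4 at 0.40. Stat5a at 0.05 and Tyk2 at -0.03 lay within the spot SD of 0. Stat5b did so on its brightest probe, at 0.08, and gave 0.49 on the other, while Stat2 measured -0.25 and Irf9 -0.29. The differences of Tyk2, Stat2, Stat5a and Irf9 changed sign under at least 1 scaling.

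Inhibitors other than Socs3 numbered 15 above the minimum level, and 1 of them was higher in ELA-EpiSC by at least 1, with 0 in the other direction and a median of 0.31. A share of 1 in 15 is near the 4.54% of all genes. The 1 gene was Socs1, a direct inhibitor of JAK kinases, at 9.12 in EpiSC and at 10.65 in ELA-EpiSC, higher by 1.53. With the spike-in probes set equal, 5 of the inhibitors passed 1 towards ELA-EpiSC, beside 14.8% of all genes. Under that setting their median was 0.84, and that of all genes was 0.54. On the scale reported here, the 14 inhibitors other than Socs1 lay between -0.67 and 0.73.

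Genes bound by STAT3 or responsive to LIF in ES cells split in direction. Of 24 such genes, 6 passed 1 towards ELA-EpiSC and 3 towards EpiSC, beside 4.54% and 4.46% of all genes, with a median of 0.30. With the spike-in probes set equal, 10 passed towards ELA-EpiSC and 1 towards EpiSC, beside 14.8% and 1.82% of all genes. Under that setting the median was 0.85, and that of all genes was 0.54. Klf5, a Krüppel-like factor of ES cells, measured 10.75 in EpiSC and 13.26 in ELA-EpiSC, the largest difference in this direction. Cebpb, a transcription factor of acute-phase responses, differed by 2.21, Myc by 1.47 and the AP-1 gene Junb by 1.42. In the opposite direction, Tbx3, a ground-state regulator downstream of LIF, measured 11.37 in EpiSC and 7.62 in ELA-EpiSC, which gave -3.75. Tfcp2l1, the STAT3 target that sustains naive self-renewal, measured 10.37 in EpiSC and 8.95 in ELA-EpiSC, which gave -1.42, and its other probe gave -0.70. Mt1, a metallothionein named after its value had been seen, differed by -1.28. With the spike-in probes set equal, Tfcp2l1 measured -0.88 and Mt1 -0.75, short of the threshold. The remaining list held genes of the other arms of gp130 signalling (the RAS, MAP kinase, PI3 kinase and Src-family genes). Of its 15 genes counted, 0 reached 1 in either direction, near the 4.54% and 4.46% of all genes, and the median was 0.02. The count towards EpiSC was 1 with an offset of 0 or 16, without background correction and with the processed signal. Towards ELA-EpiSC it was 1 with median scaling, beside 6.69% of all genes, and 1 with the spike-in probes set equal, beside 14.8%.

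**Figure D5:**
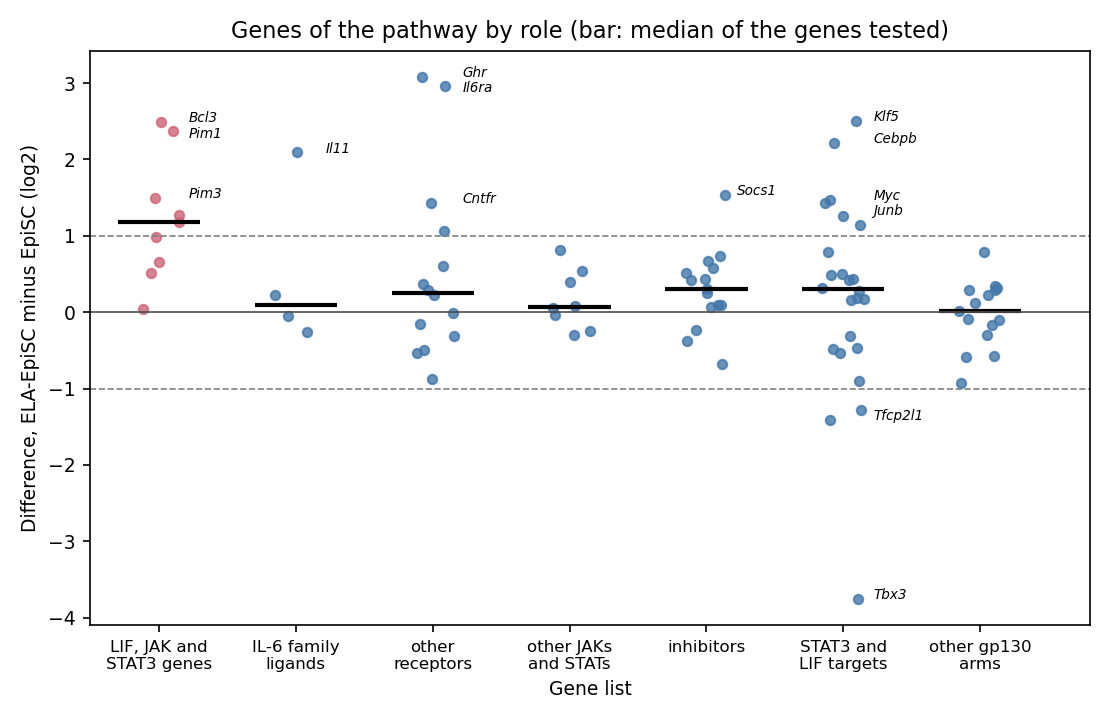
Difference ELA-EpiSC minus EpiSC (log2, vertical axis) of the genes above the minimum level, by list (horizontal axis, points spread sideways for legibility), with bars at the median of each list, dashed lines at a difference of 1 in either direction, and names on the genes with the larger differences. The medians of the 6 other lists lie between 0.02 and 0.31, below the 1.18 of the LIF, JAK and STAT3 genes, and Tbx3 stands apart at -3.75.

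Markers of other cell types were read beside these values. All 12 epiblast markers were well above background on both arrays. Of these 12, 4 passed 1 towards ELA-EpiSC, beside 4.54% of all genes, and 0 towards EpiSC, beside 4.46%. Of the 12, 10 lay above 0, beside 50.2% of all genes, and the median of the markers was 0.46. Otx2 was among the 10 at 0.0049, within the spot SD of 0, with -0.28 on its other probe, and changed sign under 5 settings. Fgf5, at 0.16, changed sign under 2. The summed level of the 12 markers, which like every such sum is set mostly by the brightest probes, was 18.25 in EpiSC and 18.22 in ELA-EpiSC on the log2 scale. Of 6 markers of mesenchyme or fibroblasts above the minimum level, 2 passed 1 towards ELA-EpiSC, beside 4.54% of all genes (Col1a1, from 7.07 in EpiSC to 10.79 in ELA-EpiSC, and Pdgfra, from 7.98 to 9.75). The other 4 did not, the median was 0.47, and the summed level was 12.20 in EpiSC and 12.90 in ELA-EpiSC. Of 9 visceral endoderm markers, 4 were higher in EpiSC by at least 1, beside 4.46% of all genes, and 2 lay above 0, with a median of -0.93 and a summed level of 15.88 in EpiSC and 15.02 in ELA-EpiSC. Of 8 ground-state markers, 4 passed 1 towards EpiSC and 0 towards ELA-EpiSC, beside 4.46% and 4.54% of all genes. The median was -0.87, and the summed level was 13.25 in EpiSC and 12.16 in ELA-EpiSC. With the spike-in probes set equal, Fgf4 and Tfcp2l1 both measured -0.88 and fell short of the threshold. Tbx3 at -3.22 and Nr0b1 at -2.21 stayed past it, beside 1.82% of all genes. Tbx3 and Tfcp2l1 were among the 4 and were also counted among the STAT3 and LIF targets, so these counts are not separate observations. Klf4 and Esrrb, also on both lists, did not reach 1. Neural markers were split, with 1 of 5 past 1 in each direction, beside 4.54% and 4.46% of all genes. Their summed level was 13.77 in EpiSC and 14.51 in ELA-EpiSC. Of the blood and macrophage markers, Ptprc measured 6.48 in EpiSC and 6.60 in ELA-EpiSC, and Spi1 was on neither array well above background. The 3 above the minimum level were Cd68 (10.03 in EpiSC and 10.55 in ELA-EpiSC), Csf1r (9.55 and 9.58) and Itgam (12.72 and 13.09). Other probes of Csf1r and Itgam gave differences down to -0.36 and -0.39. Of these 3 genes, 0 reached 1, near the shares of all genes. The summed level of the blood and macrophage markers was 13.09 in EpiSC and 13.44 in ELA-EpiSC. The part of these cell types in the differences of the pathway genes was not tested.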

How the data were processed

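RNA of 1 EpiSC pool and 1 ELA-EpiSC pool, labelled with Cy3, was read on 2 one-colour Agilent arrays. The scanner output the authors deposited gives each spot's intensity (linear, not normalized), produced per the file headers with Feature Extraction 10.7.3.1 (the submitters' processing notes name version 9.1) on probes placed on mm9. A second deposited file gives the authors' own log2 values per probe after limma background correction and quantile normalization, and served as an alternative.

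Mean spot signals were corrected for median local background by normexp with an offset of 50 (limma 3.58.1, R 4.3.3), control spots and outlier-flagged spots (158 in EpiSC, 117 in ELA-EpiSC) were removed, log2 values were quantile normalized and spots of a probe were averaged. Quantile normalization hides any shift shared by all genes. A gene took its brightest probe among those with at least 0.5 of their spots well above background on either array. Genes with a mean level of at least 7.5 were counted past a difference of 1, sizes taken from the study's methods. With 1 array per group no p-value exists. Members and lists were chosen with earlier results of these data known. From each other list, genes past 1 were named, at most 6 by size, with every ligand, JAK and STAT that was measured, except that 3 list genes are not reported here and were left out of the list counts. The processing was tested on simulated data. Alternatives numbered 14, with 2 other thresholds and 1 setting added after the data had been seen.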

Additional observations from a re-analysis of the deposited data

How the results depend on the processing

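Over 14 alternative settings, the count of LIF, JAK and STAT3 genes higher in ELA-EpiSC by at least 1 lay between 4 and 8, and 0 were higher in EpiSC in any. The count of 4 came with a minimum level of 9. Only 8 members were then counted, and Pim1, at a mean level of 8.93, was not among them. The count was 8, with a median difference of 1.72, when the spike-in probes were set equal, which shifts every gene. Median scaling gave a median of 1.41. At the stricter threshold of 2.5, 0 of 9 members were counted, beside 0.402% of all genes. That count depended on the processing. Bcl3 and Pim1 both passed 2.5 at an offset of 0 (2.70 and 2.69) or 16, and without background correction (2.61 and 2.57). They also passed it with the processed signal, median scaling, the spike-in probes set equal and the authors' own log2 values (2.58 and 2.51). At a fold of 1.5, 7 were counted, beside 11.1% of all genes. Setting the spike-in probes equal raised the genes past 1 among all genes to 2603 higher in ELA-EpiSC and 321 in EpiSC, from 756 and 742; median scaling gave 1114 and 516. Osmr turned to -0.024 with scaling to the 75th percentile after normexp, and the median of the other receptors turned to -0.043 with the processed signal scaled to that percentile. The cause was not tested for either. Of 149 recomputed differences of single members, 36 moved by more than the spot SD and 1 changed sign. Quantile normalization on the linear scale was the order computed first. It was replaced by the log2 order after its values had been seen, to follow the processing described for the series, and gave 5 members past 1 and a median of 1.18. No paired analysis was possible because there was a single array of each kind, which also left no replicate to omit. Signal over background limits Osmr, Lif and the dim second Stat3 probe, and differences of dim probes depend on the offset.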
